A study of Mus musculus with 10 samples.

Results

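Genes whose messenger RNA was strongly reduced in activated mouse dendritic cells were selected on their measured levels in these libraries. A gene entered when it stood at 4 CPM (the expected count per 1000000 counts of its library) or more in every non-activated library and when its highest activated value was at most 0.4 times its lowest non-activated value. Of 41813 genes in the tables, 9849 reached the level, and 36 of these (0.366%) met the ratio as well, after 3 genes that met both limits were left out by name. The change of these 36 genes is therefore the criterion and not a finding, and it is given as levels with no test.

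The cells were bone marrow-derived dendritic cells, labelled as positive for CD11c and high in MHC class II, with 3 activated and 3 non-activated RNA libraries. In the series design, activated cells were those given lipopolysaccharide (LPS, a bacterial ligand of TLR4), pulsed with the ovalbumin peptide OVA323-339 and cultured for 24 h with CD4+ OT-II T cells, which are specific for it. The non-activated cells were, by the same design, LPS-treated, unpulsed and cultured with the same T cells, whereas the sample labels give LPS to the activated cells alone. Which account holds was not settled here, no label ties a library to a given animal, and 4 ATAC-seq samples were not analysed here.

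Dendritic cells take up antigen, mature on microbial signals and present peptides to T cells, and contact with a T cell that recognises the peptide sends further signals back through CD40 and cytokines. Maturation is known to change lipid handling, uptake, cytoskeleton and migration. Because the samples are bulk RNA, fewer cells that carry a message and less of it per cell cannot be told apart.

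Each library held between 21338012 and 27404937 expected counts. Across 13946 genes tested with edgeR's quasi-likelihood test, 27.6% passed an adjusted p of 0.05, 11.7% lower and 15.9% higher in activated cells. The 1632 lower genes became 1061 without non-activated replicate 2. Both replicate 1 libraries stood apart in T cell receptor messages: Trac was at 7284 CPM in replicate 1 of activated cells, at 7582 CPM in that of non-activated cells and at 2.75 to 27.3 CPM in the other 4 libraries. Trbc2 was at 105 CPM, 108 CPM and 0.53 to 1.84 CPM in the same order. The CD3 chains Cd3e, Cd3d and Cd3g stayed between 0 and 1.86 CPM in all 6 libraries, and the 14 T cell markers other than Trac and Trbc2 summed to 34.2 to 49.1 CPM in activated, against 25.8 to 51.7 CPM in non-activated libraries. With both replicate 1 libraries left out, the median ratio of the mean levels of the 36 genes was 0.216 rather than 0.223. That all 36 still met the rule then was fixed in advance, since leaving out libraries can only loosen it. The 11 dendritic cell markers summed to 12710 to 15876 CPM in activated, against 14387 to 16798 CPM in non-activated libraries. Cd74, H2-Ab1 and H2-Aa made up most of that sum. By edgeR's test 5 of these 11 were higher and 0 lower in activated cells. The migration receptor Ccr7 was at 1419 to 2031 CPM in activated, against 588 to 733 CPM in non-activated libraries. Of 8 tested T cell markers 3 were higher and 0 lower, and both tested mast cell and basophil markers were lower. Markers of mast cells and basophils, 9 in number, summed to 26.1 to 43.3 CPM in activated, against 80.1 to 93.3 CPM in non-activated libraries, nearly all of it from Kit and Gata2, while Cpa3, Mcpt4, Fcer1a and Ms4a2 stood at 0.194 CPM or less and Tpsab1 and Cma1 at 0 in every library. The part of such cells in the results was not tested. The 13 macrophage and monocyte markers summed to 3114 to 4597 CPM in activated, against 3701 to 4708 CPM in non-activated libraries, with 1 lower, 1 higher and the others not passing. B cell, neutrophil and NK cell markers summed to at most 8.67 CPM in any library.

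The 36 genes were all protein-coding in RefSeq, all passed the filter on low counts, and lay on 18 chromosomes. Together they took 370 to 491 CPM in activated, against 1581 to 1767 CPM in non-activated libraries. Their mean levels ran from 0.598 CPM (Ppl) to 72.3 CPM (Ifitm1) in activated cells and from 4.75 CPM (Ppl) to 208 CPM (Ifitm1) in non-activated cells, and 17 of the 36 averaged under 5 CPM in activated cells. The median ratio of the activated to the non-activated mean was 0.223, with extremes of 0.0340 for Fndc5 and 0.349 for Auh. That groups do not overlap follows from the rule; of all 9849 genes at the level, 33.0% had every activated value below every non-activated one.

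**Figure D1:**
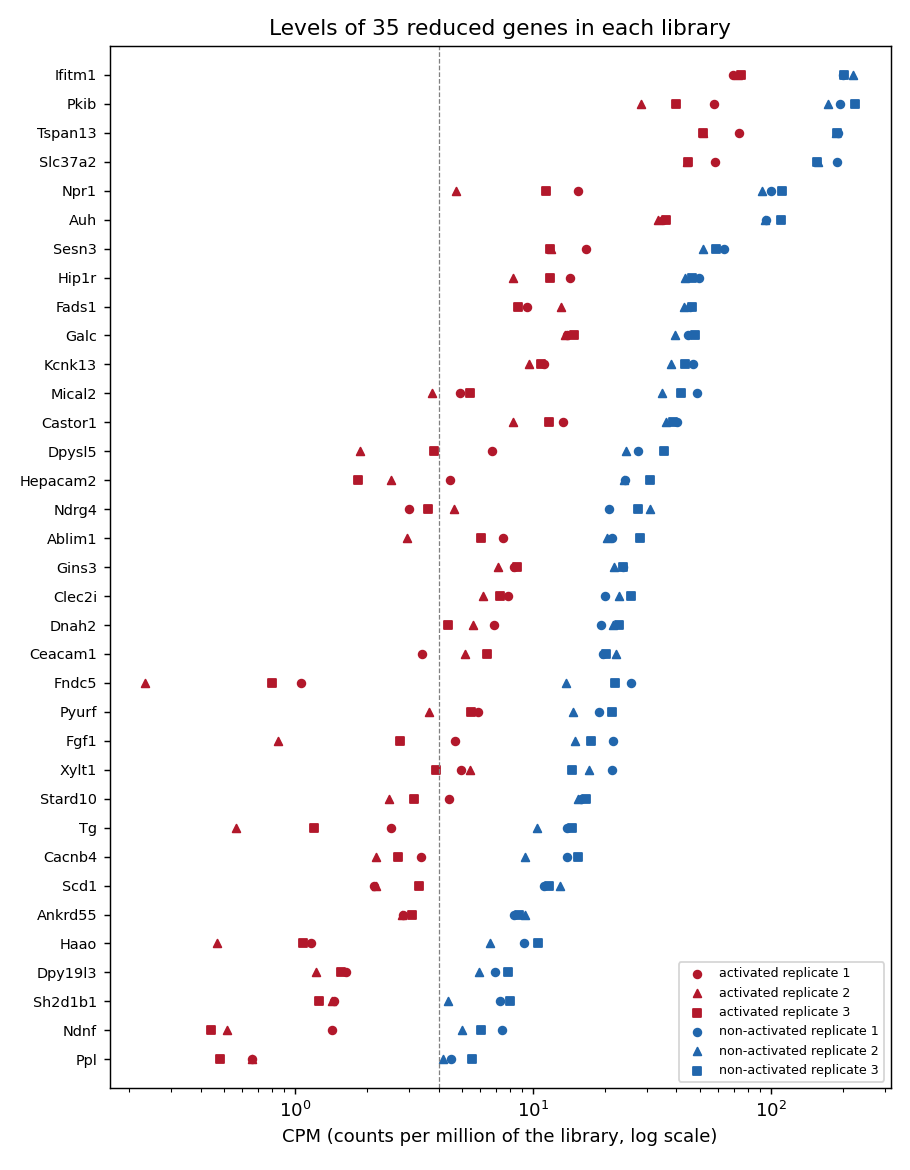
CPM of each of 35 of the 36 genes (rows, ordered by mean non-activated level) in every library on a log axis, red for activated and blue for non-activated, with the marker shape giving the replicate and the dashed line the level limit of 4 CPM. The highest genes, Ifitm1, Pkib, Tspan13 and Slc37a2, stayed above 28 CPM in activated libraries, whereas Fndc5 lay between 0.234 and 1.06 CPM.

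Secreted factors and hormone-related genes held the most reduced member. Fndc5, which encodes the membrane precursor of irisin, had 1.06, 0.234 and 0.801 CPM in activated replicates 1 to 3, against 25.8, 13.7 and 22.1 CPM in the non-activated ones. The activated values rested on 5 to 29 counts, and the mean was 29.4-fold lower in activated cells. Tg, which encodes thyroglobulin, the thyroid hormone precursor, had 2.52, 0.562 and 1.20 CPM in activated replicates 1 to 3, against 13.9, 10.4 and 14.5 CPM in the non-activated ones. Its mean transcript length of 1268 to 1697 bases in activated and 1261 to 1275 bases in non-activated libraries is far under that of the full thyroglobulin message, and the gene overlaps Sla, the gene of an SRC-like adaptor, which stood at 14.2 CPM in activated, against 20.9 CPM in non-activated cells. Since the labels do not say that strand was kept, reads of overlapping genes cannot be told apart. Ndnf, which encodes a secreted neurotrophic factor, had 1.42, 0.516 and 0.441 CPM in activated replicates 1 to 3, against 7.37, 5.00 and 6.01 CPM in the non-activated ones. Fgf1, a fibroblast growth factor that lacks a classical secretion signal, averaged 2.76 ± 1.91 CPM in activated, against 18.1 ± 3.41 CPM in non-activated cells (SD, n = 3 each). Its gene overlaps Arhgap26, which stood at 150.4 CPM in activated, against 69.4 CPM in non-activated cells, the opposite order. In activated cells Fndc5, Tg and Fgf1 were lowest in replicate 2 and Ndnf in replicate 3, and all 4 genes were highest in activated replicate 1.

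Receptors, channels and other membrane proteins followed. Npr1, the guanylyl cyclase receptor of atrial natriuretic peptide, had 15.5, 4.76 and 11.3 CPM in activated replicates 1 to 3, against 99.4, 91.8 and 111 CPM in the non-activated ones. Activated replicate 2 was the lowest, well below the other activated values. Hepacam2, an immunoglobulin-like adhesion protein, had 4.49, 2.53 and 1.84 CPM in activated replicates 1 to 3, against 24.4, 24.1 and 31.0 CPM in the non-activated ones. Kcnk13, which encodes the potassium leak channel THIK-1 known from mouse microglia, had 11.1, 9.56 and 10.7 CPM in activated replicates 1 to 3, against 46.8, 37.9 and 43.4 CPM in the non-activated ones, with a narrow activated range. The highest activated value of Hepacam2 was in replicate 1. Tspan13, a tetraspanin that organises proteins within membranes, had 73.4, 51.5 and 51.5 CPM in activated replicates 1 to 3, against 191, 188 and 189 CPM in the non-activated ones. Its non-activated values nearly coincided, whereas activated replicate 1 stood above the other activated libraries. Ifitm1, an interferon-induced transmembrane protein that restricts virus entry, had 69.2, 72.8 and 74.9 CPM in activated replicates 1 to 3, against 200.0, 219.8 and 203 CPM in the non-activated ones. It had the highest CPM of the 36 in non-activated cells and varied little within groups, with standard deviations of 2.88 CPM in activated, against 10.6 CPM in non-activated cells. Slc37a2, a sugar-phosphate exchanger of the endoplasmic reticulum, had 58.3, 44.1 and 44.6 CPM in activated replicates 1 to 3, against 189, 157 and 155 CPM in the non-activated ones. As for Tspan13, the highest activated value was that of replicate 1. Clec2i, which encodes a lectin-like ligand of an NK cell receptor of the mouse, had 7.81, 6.18 and 7.25 CPM in activated replicates 1 to 3, against 20.0, 23.0 and 25.8 CPM in the non-activated ones, and overlaps BC035044 on the other strand, which was at 46.4 CPM in activated, against 10.6 CPM in non-activated cells. Ceacam1, an inhibitory immunoglobulin-like receptor, averaged 5.01 ± 1.504 CPM in activated, against 20.7 ± 1.34 CPM in non-activated cells, and Cacnb4, a beta subunit of voltage-gated calcium channels, 2.75 ± 0.602 CPM in activated, against 12.8 ± 3.20 CPM in non-activated cells (SD, n = 3 each).

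Signalling and nuclear genes came next. Pkib, an inhibitor of protein kinase A, had 57.5, 28.4 and 39.8 CPM in activated replicates 1 to 3, against 195, 174 and 225 CPM in the non-activated ones. Among activated libraries, replicate 1 carried the most and replicate 2 the least. Sesn3, a sestrin that restrains the growth kinase complex mTORC1, had 16.6, 11.9 and 11.8 CPM in activated replicates 1 to 3, against 63.2, 51.7 and 58.4 CPM in the non-activated ones. Castor1, the arginine sensor of the same pathway, averaged 11.1 ± 2.61 CPM in activated, against 38.3 ± 2.21 CPM in non-activated cells (SD, n = 3 each). Ndrg4, of the NDRG family of hydrolase-like cytoplasmic proteins, had 2.99, 4.64 and 3.61 CPM in activated replicates 1 to 3, against 20.8, 31.0 and 27.5 CPM in the non-activated ones, and differed from most members in that replicate 1 was the lowest of both groups. Sh2d1b1, the SLAM receptor adaptor EAT-2, averaged 1.38 ± 0.105 CPM in activated, against 6.52 ± 1.90 CPM in non-activated cells. Gins3, a subunit of the GINS complex of the replication helicase, had 8.32, 7.12 and 8.57 CPM in activated replicates 1 to 3, against 23.7, 21.9 and 23.8 CPM in the non-activated ones. Sh2d1b1 has a near-identical neighbour, Sh2d1b2, so its fractional counts are uncertain.

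Cytoskeletal genes among the 36 act on actin, junctions, neurites, coated pits and cilia. Mical2, a monooxygenase that oxidises actin and acts on the SRF pathway, had 4.93, 3.75 and 5.45 CPM in activated replicates 1 to 3, against 48.7, 34.8 and 41.7 CPM in the non-activated ones. All 3 activated values lay within 3.75 to 5.45 CPM, and the mean was 8.86-fold lower in activated cells. Ppl, which encodes periplakin, a plakin of epithelial junctions, had 0.657, 0.656 and 0.481 CPM in activated replicates 1 to 3, against 4.50, 4.19 and 5.55 CPM in the non-activated ones, the lowest level of the 36. Dpysl5, a collapsin response mediator known from neurons, had 6.71, 1.87 and 3.85 CPM in activated replicates 1 to 3, against 27.6, 24.5 and 35.6 CPM in the non-activated ones, again lowest in replicate 2 of both groups. For Ppl and Dpysl5, as for all 36 genes, the gap between groups follows from the rule. Hip1r, which links clathrin-coated pits to actin, had 14.2, 8.19 and 11.8 CPM in activated replicates 1 to 3, against 49.7, 43.3 and 46.3 CPM in the non-activated ones. Ablim1, an actin-binding LIM protein, averaged 5.48 ± 2.30 CPM in activated, against 23.3 ± 4.15 CPM in non-activated cells, and Dnah2, an axonemal dynein heavy chain, 5.59 ± 1.23 CPM in activated, against 21.3 ± 1.89 CPM in non-activated cells (SD, n = 3 each).

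Metabolic genes were the last set. Fads1, a desaturase of polyunsaturated fatty acids, had 9.45, 13.03 and 8.61 CPM in activated replicates 1 to 3, against 45.6, 43.0 and 46.4 CPM in the non-activated ones. Scd1, which desaturates stearoyl-CoA, averaged 2.55 ± 0.671 CPM in activated, against 11.9 ± 0.941 CPM in non-activated cells (SD, n = 3 each). Galc, a lysosomal galactosylceramidase, had 13.8, 13.6 and 14.9 CPM in activated replicates 1 to 3, against 44.9, 39.5 and 48.0 CPM in the non-activated ones. The activated values of Galc differed by little more than 1 CPM. Stard10, a phospholipid transfer protein, had 4.42, 2.48 and 3.17 CPM in activated replicates 1 to 3, against 15.9, 15.5 and 16.7 CPM in the non-activated ones. Haao, an enzyme of the kynurenine route to NAD, had 1.17, 0.469 and 1.08 CPM in activated replicates 1 to 3, against 9.11, 6.57 and 10.5 CPM in the non-activated ones. Stard10 and Haao were both lowest in activated replicate 2. Auh, an enoyl-CoA hydratase of leucine breakdown, had 35.0, 33.5 and 36.3 CPM in activated replicates 1 to 3, against 95.5, 94.3 and 110.0 CPM in the non-activated ones. It lost the smallest share of the 36, and its activated values lay close together. Dpy19l3, a mannosyltransferase that modifies tryptophan, had 1.64, 1.22 and 1.56 CPM in activated replicates 1 to 3, against 6.90, 5.94 and 7.85 CPM in the non-activated ones. Pyurf, a mitochondrial chaperone of methyltransferases, had 5.87, 3.65 and 5.50 CPM in activated replicates 1 to 3, against 19.0, 14.7 and 21.3 CPM in the non-activated ones. Xylt1, which starts glycosaminoglycan chains, averaged 4.76 ± 0.794 CPM in activated, against 17.7 ± 3.43 CPM in non-activated cells, and Ankrd55, for which no role is given here, 2.91 ± 0.168 CPM in activated, against 8.75 ± 0.452 CPM in non-activated cells (SD, n = 3 each).

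Pyurf, Gins3 and Clec2i were the members nearest the ratio limit, at 0.399, 0.391 and 0.390. Just outside it lay Crem, Vopp1 and Hdac5, at 0.403, 0.403 and 0.406. Crem, a cAMP-responsive repressor and activator, had 26.9, 24.1 and 24.0 CPM in activated replicates 1 to 3, against 69.3, 67.7 and 66.7 CPM in the non-activated ones. At the level limit the lowest members were Ppl, Sh2d1b1 and Ndnf, whose lowest non-activated values were 4.19, 4.37 and 5.00 CPM, and the nearest genes outside it were Pacsin1, Ms4a4a and Scube1 at 3.64, 3.56 and 3.46 CPM.

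On a scale per transcript length (TPM), which allows levels of different genes to be compared, Ifitm1 led at 247 ± 23.8 TPM in activated and 669.6 ± 44.1 TPM in non-activated cells (SD, n = 3 each). Pkib followed with 62.0 ± 26.0 TPM in activated and 243 ± 31.1 TPM in non-activated cells, and Tspan13 with 53.4 ± 9.32 TPM in activated and 162 ± 3.33 TPM in non-activated cells. Auh stood at 43.6 ± 4.23 TPM in activated and 109 ± 7.27 TPM in non-activated cells. On this scale 25 of the 36 still had a highest activated value of at most 0.4 times the lowest non-activated value. Dpy19l3 alone overlapped between groups, with 2.47, 1.31 and 2.12 TPM in activated replicates 1 to 3, against 2.89, 1.99 and 4.65 TPM in the non-activated ones.

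The overlap of Dpy19l3 came with a difference in which of its transcripts the reads were assigned to. RSEM's gene length is the mean over a gene's transcripts weighted by their abundance, and for Dpy19l3 it was 1142, 1600 and 1319 bases in activated replicates 1 to 3, against 3506, 4537 and 2660 bases in the non-activated ones. Shorter transcripts therefore carried more of the remaining message in each activated library, on 26.0 to 44.95 counts. For Hip1r the length was 4414, 3929 and 4580 bases in activated replicates 1 to 3, against 5344, 5919 and 5404 bases in the non-activated ones. Auh went the same way by a smaller margin, with 1338 to 1435 bases in activated and 1470 to 1563 bases in non-activated libraries. These were 3 of the 27 members with several transcripts (11.1%). Among 8773 such genes at a mean of 4 CPM or more, 13.1% had lengths that did not overlap between groups, and 4.02% when means also differed by over 10%, as they did for Dpy19l3 and Hip1r. Lengths of the other 24 overlapped.

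**Figure D2:**
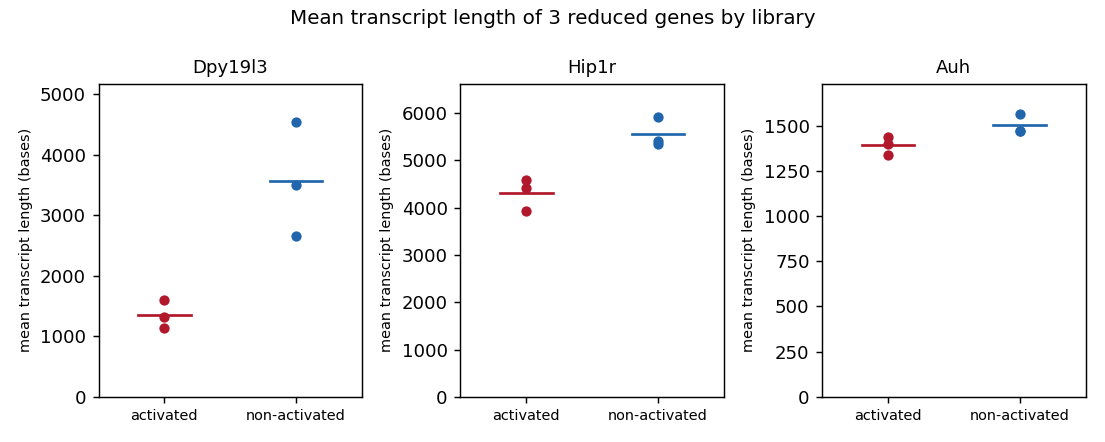
Mean transcript length in bases, weighted by abundance, for Dpy19l3, Hip1r and Auh in each activated (red) and non-activated (blue) library, with the group mean as a line. Every activated value lies below every non-activated one, from 1142 to 1600 against 2660 to 4537 bases for Dpy19l3.

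Relatives of the members, taken only among genes that did not meet the rule, were mixed. Strongly reduced relatives at the level limit are therefore absent by selection. By shared letters of the symbol, which need not mean a shared gene family, 23 members had 80 tested relatives outside the set. Of these, 9 were lower (11.25%) and 17 higher (21.25%) in edgeR's quasi-likelihood test, near or above the 11.7% and 15.9% of all tested genes. Their median log2 fold change was 0.09. Mical3, the relative of Mical2 in the actin-oxidising MICAL family, had 52.8, 51.0 and 61.6 CPM in activated replicates 1 to 3, against 17.6, 17.4 and 19.1 CPM in the non-activated ones (log2 fold change 1.69 ± 0.09, SE; edgeR adjusted p = 1.52e-05). Mical1 had 44.2 ± 0.237 CPM in activated, against 52.1 ± 5.27 CPM in non-activated cells and did not pass (edgeR adjusted p = 0.235). Mical2 was the reduced member of a family in which the other tested genes either rose or did not pass.

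The desaturases showed the same kind of split. Fads2, which acts ahead of Fads1 in the synthesis of long polyunsaturated fatty acids, had 18.3, 24.9 and 14.4 CPM in activated replicates 1 to 3, against 5.35, 6.31 and 6.83 CPM in the non-activated ones (log2 1.72 ± 0.21, SE; edgeR adjusted p = 0.000716). Fads3 was higher as well, at 7.70 ± 0.983 CPM in activated, against 4.93 ± 0.281 CPM in non-activated cells, but did not pass once activated replicate 2 or non-activated replicate 3 was dropped (edgeR adjusted p = 0.0540 and 0.0568; 0.00378 at the lowest and 0.0568 at the highest of the 12 alternatives). Fads1 and Fads2 are neighbours on chromosome 19, 81374 bases apart. Scd2, the other stearoyl-CoA desaturase, stood at 76.6 ± 32.0 CPM in activated, against 103 ± 15.6 CPM in non-activated cells and did not pass (edgeR adjusted p = 0.352), although it did without activated replicate 3 (0.0159).

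Ndrg2, like Ndrg4 of the NDRG family, had 24.5, 21.3 and 31.0 CPM in activated replicates 1 to 3, against 4.11, 3.94 and 5.16 CPM in the non-activated ones (log2 2.62 ± 0.17, SE; edgeR adjusted p = 2.84e-05). Ndrg3 fell, to 20.5 ± 0.860 CPM in activated against 30.1 ± 2.67 CPM in non-activated cells, and Ndrg1 did not pass (362 ± 71.7 CPM in activated against 303 ± 27.7 CPM in non-activated cells; edgeR adjusted p = 0.115, but 0.0165 with the replicate number as a block and 0.0265 without activated replicate 2). Fgf23, a hormone of phosphate balance in the same family as Fgf1, had 39.6, 33.7 and 31.5 CPM in activated replicates 1 to 3, against 2.75, 3.98 and 5.20 CPM in the non-activated ones (log2 3.22 ± 0.20, SE; edgeR adjusted p = 2.59e-05). Castor2, the homologue that pairs with Castor1, was higher at 131 ± 8.86 CPM in activated, against 87.3 ± 20.5 CPM in non-activated cells (edgeR adjusted p = 0.0113). The other sestrins did not pass, with Sesn1 at 11.9 ± 1.60 CPM in activated against 14.8 ± 2.43 CPM in non-activated cells and Sesn2 at 87.4 ± 12.2 CPM in activated against 85.7 ± 16.6 CPM in non-activated cells.

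Of 13 tested tetraspanin relatives of Tspan13, 3 rose and 1 fell. Tspan33 had 153, 129 and 117 CPM in activated replicates 1 to 3, against 28.0, 26.2 and 32.2 CPM in the non-activated ones (log2 2.28 ± 0.12, SE; edgeR adjusted p = 1.20e-05). Tspan32 rose to 20.3 ± 1.84 CPM in activated against 11.5 ± 1.18 CPM in non-activated cells, and Tspan14 fell to 17.6 ± 2.57 CPM in activated against 29.2 ± 1.43 CPM in non-activated cells. Tspan2 rested on 4.70 ± 2.03 CPM in activated against 1.82 ± 0.867 CPM in non-activated cells and did not pass once activated replicate 1 or non-activated replicate 1 or 2 was dropped (with edgeR adjusted p between 0.0847 and 0.0934; 0.00234 at the lowest and 0.183 at the highest of the 12 alternatives). Among the interferon-induced transmembrane genes Ifitm2, next to Ifitm1, fell to 61.6 ± 7.56 CPM in activated against 91.3 ± 3.33 CPM in non-activated cells (edgeR adjusted p = 0.00984). Ifitm3 stood at 117 ± 22.1 CPM in activated against 144 ± 23.7 CPM in non-activated cells and did not pass (edgeR adjusted p = 0.353). Ifitm10 was higher at 1.68 ± 0.184 CPM in activated against 0.622 ± 0.286 CPM in non-activated cells, but did not pass once activated replicate 2 or 3 or non-activated replicate 1 or 2 was dropped (with edgeR adjusted p between 0.0560 and 0.0678; 0.00812 at the lowest and 0.0785 at the highest of the 12 alternatives). Counts of Ifitm genes are uncertain to the extent that their similar sequences share reads.

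**Figure D3:**
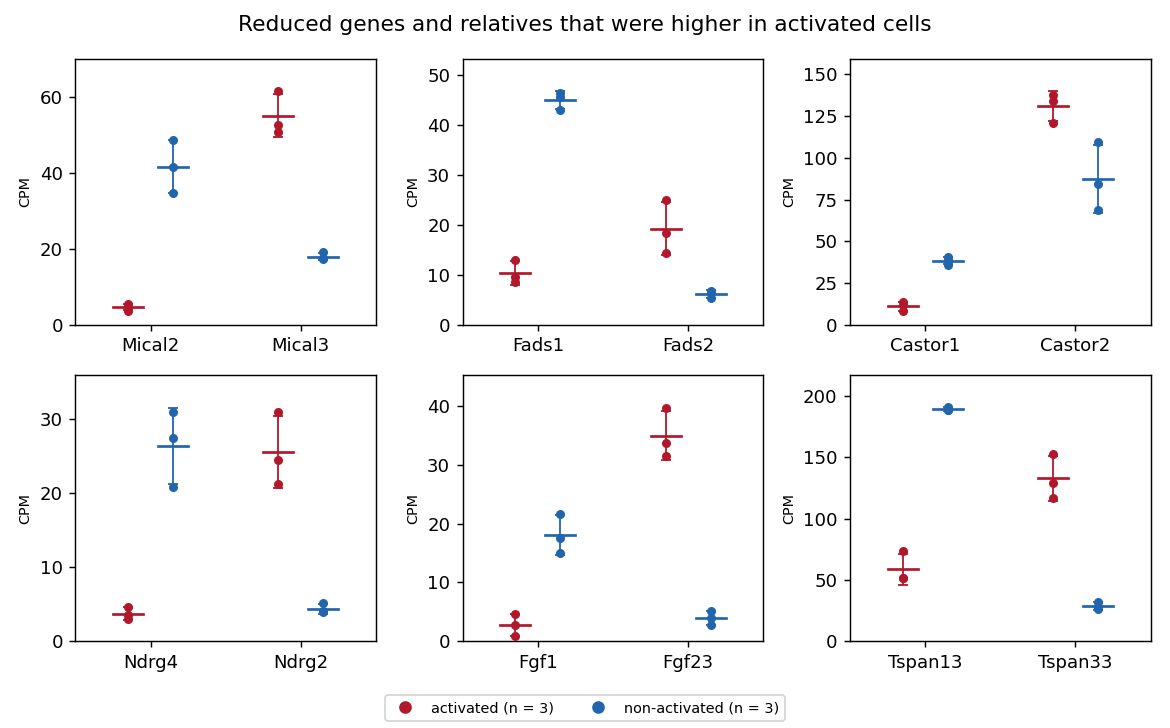
CPM in each library of 6 reduced genes (left of each panel) and a relative of each (right), activated in red left of non-activated in blue, with points for libraries, a line for the mean and bars for the SD (n = 3). The relatives drawn were picked because they were higher in activated cells, and other relatives fell or did not pass. In activated cells Mical2 lies at 3.75 to 5.45 CPM and Mical3 at 51.0 to 61.6 CPM.

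Lipid transfer and lectin families were mixed. Of 8 tested relatives of Stard10, 4 rose and 1 fell: Stard4 and Stard7 were at 37.9 ± 1.60 and 73.8 ± 1.00 CPM in activated against 22.9 ± 3.41 and 49.7 ± 4.35 CPM in non-activated cells, and Stard9, a kinesin, fell to 14.9 ± 0.950 CPM in activated against 28.7 ± 0.477 CPM in non-activated cells. Stard8 did not pass once activated replicate 2 or non-activated replicate 1 or 3 was dropped (with edgeR adjusted p between 0.0604 and 0.0690; 0.000970 at the lowest and 0.128 at the highest of the 12 alternatives). Stard6, at 2.29 ± 0.293 CPM in activated against 1.36 ± 0.217 CPM in non-activated cells, passed at an edgeR adjusted p of 0.0486. It lost the call in 11 of the 12 alternatives, with 0.0740 to 0.151 in the 6 single-library omissions and 0.0576 with the replicate block. Only limma on the deposited TPM kept it (adjusted p = 0.0268), and 0.151 was the highest of the 12. Of 16 tested relatives of Clec2i, 3 fell and 2 rose. Clec2l fell to 2.16 ± 0.493 CPM in activated against 7.31 ± 2.01 CPM in non-activated cells (edgeR adjusted p = 0.00313), and Clec10a to 1.498 ± 0.190 CPM in activated against 3.61 ± 0.345 CPM in non-activated cells. Clec4e, a receptor for mycobacterial glycolipid, rose to 1049 ± 205 CPM in activated against 562 ± 63.2 CPM in non-activated cells. Clec4a2 was lower but did not pass once activated replicate 3 or non-activated replicate 1 or 2 was dropped (with edgeR adjusted p between 0.0650 and 0.0757; 0.00144 at the lowest and 0.0758 at the highest of the 12 alternatives), and Clec2d was higher but did not pass once activated replicate 1 or 3 or non-activated replicate 2 or 3 was dropped (0.0718 to 0.1003; 0.00363 at the lowest and 0.1003 at the highest of the 12 alternatives).

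Smaller families held few calls. Fndc3b rose to 127 ± 22.9 CPM in activated against 70.5 ± 4.00 CPM in non-activated cells (edgeR adjusted p = 0.00126), and Fndc3a did not pass. Ceacam15 fell to 7.75 ± 4.32 CPM in activated against 21.5 ± 4.36 CPM in non-activated cells, but did not pass once activated replicate 3 or non-activated replicate 3 was dropped (edgeR adjusted p = 0.0555 and 0.0559; 5.70e-05 at the lowest and 0.0559 at the highest of the 12 alternatives). Dpy19l4 fell to 36.4 ± 2.38 CPM in activated against 47.3 ± 0.551 CPM in non-activated cells, a call that among the single-library omissions held without activated replicate 1 only (the other 5 gave an edgeR adjusted p between 0.0579 and 0.0775; 0.0110 at the lowest and 0.359 at the highest of the 12 alternatives), and Dpy19l1 did not pass. The GINS partners of Gins3, Gins2 and Gins4, stood at 24.6 ± 1.97 and 19.5 ± 1.096 CPM in activated against 29.5 ± 2.90 and 22.9 ± 0.991 CPM in non-activated cells and did not pass (edgeR adjusted p = 0.207 and 0.222). Hip1, the relative of Hip1r, was at 34.3 ± 8.23 CPM in activated against 24.0 ± 4.80 CPM in non-activated cells and did not pass (edgeR adjusted p = 0.0605), but did with the replicate block (0.000898), with no filter on low counts (0.0142), with DESeq2 (0.0196) and without non-activated replicate 2 (0.0369), the highest of the 12 alternatives being 0.451. Dpysl2 likewise passed only with the block (0.0896 without it and 0.0287 with it). Kcnk6, Xylt2, Cacnb1 and Cacnb3 did not pass (edgeR adjusted p 0.409 to 0.607).

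Pathway lists held few members. Of 36 genes of lipid and sterol metabolism, 2 were members (Scd1 and Fads1), and of the other 34, 12 were lower and 10 higher by edgeR's test (median log2 fold change -0.08, against 0.01 over all tested genes). The counts of this list and of those that follow stand beside 11.7% lower and 15.9% higher among all 13946 tested genes. The fatty acid binding protein Fabp5 fell to 247 ± 32.8 CPM in activated against 596 ± 60.3 CPM in non-activated cells and the scavenger receptor Cd36 to 416 ± 33.3 CPM in activated against 788 ± 22.8 CPM in non-activated cells. The fatty acid synthase Fasn and the ATP citrate lyase Acly rose, Fasn to 81.6 ± 3.70 CPM in activated against 47.7 ± 3.09 CPM in non-activated cells and Acly to 338 ± 6.18 CPM in activated against 223 ± 10.3 CPM in non-activated cells. Fasn did not pass when limma was run on TPM as deposited (adjusted p = 0.128; 2.34e-15 at the lowest and 0.128 at the highest of the 12 alternatives). Of 27 other tested genes in the list of FOXO, PI3K and insulin signalling, which held Sesn3, 3 were lower and 7 higher. The PI3K gamma catalytic subunit Pik3cg fell to 59.0 ± 14.8 CPM in activated against 170.1 ± 28.0 CPM in non-activated cells and the adaptor Gab2 to 107 ± 8.33 CPM in activated against 203 ± 6.14 CPM in non-activated cells, while the receptor Igf1r rose to 39.0 ± 3.37 CPM in activated against 25.7 ± 2.13 CPM in non-activated cells. Of 32 tested genes outside the set in the list of immediate early and AP-1 factors, 5 were lower and 5 higher, among them Btg2 lower at 12.8 ± 0.793 CPM in activated against 25.6 ± 2.42 CPM in non-activated cells and Batf higher at 63.9 ± 6.61 CPM in activated against 34.4 ± 3.39 CPM in non-activated cells. The list of adhesion, actin and migration held no member and had 7 of 41 lower and 14 higher, led by the GTPase Rhob at 490.1 ± 21.8 CPM in activated against 82.3 ± 10.3 CPM in non-activated cells. The cell cycle list held none either, with 6 of 44 lower and 13 higher, Cdk6 being at 279 ± 8.12 CPM in activated against 176 ± 10.9 CPM in non-activated cells. Ccnd2 of that list was higher with a smaller adjusted p (log2 fold change 1.96, edgeR adjusted p = 6.02e-05). It did not pass with limma on TPM as deposited (adjusted p = 0.120). Other lists without a member went both ways. The NF-kappaB list had 2 of 27 lower and 16 higher. Myeloid surface receptors had 12 of 44 lower and 5 higher, and endosome, lysosome and autophagy 8 of 30 lower and 2 higher. Over all 16 lists, 97 of 502 tested genes outside the set were lower and 131 higher, against the same 11.7% and 15.9% of all tested genes.

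Genes beside the members on the chromosome were also set beside all genes. The nearest tested genes on either side, leaving out genes that themselves met both limits, were 69 in number, of which 21 were lower (30.4%, against 11.7% of all tested genes) and 8 higher (5 without activated replicate 3, 4 without non-activated replicate 2), with a median log2 fold change of -0.23 against 0.01 over all tested genes. The number lower ranged from 14 to 23 with each library left out in turn, and whether the difference from all genes exceeds chance was not tested. The lower neighbours with the smallest adjusted p, chosen after their values were seen, were Nfil3, Gpr65, Atg16l2 and Il6st. Nfil3, a basic leucine zipper factor 37505 bases from Auh, was at 119.7 ± 4.10 CPM in activated, against 309 ± 13.5 CPM in non-activated cells (edgeR adjusted p = 2.39e-05). Gpr65, an acid-sensing receptor 9176 bases from Galc, was at 45.6 ± 11.6 CPM in activated against 143 ± 14.2 CPM in non-activated cells (edgeR adjusted p = 3.00e-04). Atg16l2, 14819 bases from Stard10, was at 10.99 ± 0.824 CPM in activated against 20.9 ± 0.919 CPM in non-activated cells, and Il6st, the shared receptor chain of IL-6 family cytokines, at 178 ± 7.20 CPM in activated against 272 ± 2.51 CPM in non-activated cells. Il6st did not pass when limma was run on TPM as deposited (adjusted p = 0.123; 4.42e-10 at the lowest and 0.123 at the highest of the 12 alternatives). Gins3 and Ndrg4 are both members and next to each other, 31915 bases apart on chromosome 8.

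Sequence before the start site is shown for the most reduced member, for 2 others of the strongest reduction, and for the adjacent pair Gins3 and Ndrg4. The stretches are from RefSeq on GRCm38.p6, 5′ to 3′ on the gene's strand, end at the edge of the annotated gene, and carry the GC box GGGCGG and the CCAAT box, on either strand, in capitals. In Gins3 a GC box and a CCAAT box overlap.
Fndc5 (chr4:129136749-129136869, plus strand): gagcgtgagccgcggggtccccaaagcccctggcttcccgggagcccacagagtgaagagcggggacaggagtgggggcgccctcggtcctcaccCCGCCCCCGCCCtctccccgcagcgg
Npr1 (chr3:90465929-90466116, minus strand): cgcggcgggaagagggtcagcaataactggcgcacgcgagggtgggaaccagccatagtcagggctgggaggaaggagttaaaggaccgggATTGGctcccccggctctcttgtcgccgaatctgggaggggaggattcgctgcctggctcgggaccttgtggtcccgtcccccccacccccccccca
Mical2 (chr7:112225586-112225824, plus strand): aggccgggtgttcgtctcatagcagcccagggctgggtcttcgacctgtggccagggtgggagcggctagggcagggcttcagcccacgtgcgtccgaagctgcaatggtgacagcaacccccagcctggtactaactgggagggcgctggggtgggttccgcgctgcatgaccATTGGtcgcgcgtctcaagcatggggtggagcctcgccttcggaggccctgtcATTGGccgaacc
Gins3 (chr8:95633309-95633558, plus strand): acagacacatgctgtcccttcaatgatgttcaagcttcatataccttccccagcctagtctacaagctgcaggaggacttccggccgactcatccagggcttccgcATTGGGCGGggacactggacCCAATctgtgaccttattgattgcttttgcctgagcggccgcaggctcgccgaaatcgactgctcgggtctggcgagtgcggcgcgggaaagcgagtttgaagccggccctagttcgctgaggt
Ndrg4 (chr8:95676724-95676973, plus strand): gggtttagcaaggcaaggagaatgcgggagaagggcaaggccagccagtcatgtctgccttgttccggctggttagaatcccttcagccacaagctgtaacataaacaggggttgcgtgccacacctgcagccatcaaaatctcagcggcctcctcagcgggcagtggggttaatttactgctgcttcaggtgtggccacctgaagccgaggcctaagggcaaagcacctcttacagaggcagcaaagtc
The neighbours Gins3 and Ndrg4 differed here: 3 such boxes and 17 CpG steps stood in the Gins3 stretch, and no box and 6 CpG steps in that of Ndrg4, both 250 bases long.

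Of the 36 genes 27 matched a RefSeq window of 300 bases (250 before and 50 after the first-listed start). Their median GC content was 60.7%, the same as over the 10163 tested genes with a window, with a median of 19 and 21 CpG steps. The GC box GGGCGG was in 18 of 27 windows (66.7%, against 63.2% of tested genes), the box CCAAT in 9 (33.3% against 38.8%), the Krueppel-like CACCC in 20 (74.1% against 62.3%) and the ETS core GGAAGT in 6 (22.2% against 29.5%). The short cAMP response site TGACG was in 2 (7.41% against 31.6%, and in 21.02% of all 27025 windows), and the full site TGACGTCA, which contains it, in 0 (3.21% of tested genes). The AP-1 site TGANTCA was in 3 (11.1% against 5.21%), the forkhead site GTAAACA in 3 (11.1% against 2.57%) and the E-box CACGTG in 2 (7.41% against 10.2%). The TATA box TATAAA and the STAT site TTCNNNGAA were in 1 each (3.70%, against 7.18% and 6.95%), and the NF-kappaB site in 0 (0.44% of tested genes). Both strands were searched, and these are counts of letters, not of bound sites.

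Within groups the extremes fell on particular libraries. Activated replicate 2 held the lowest activated value of 22 of the 36 genes (61.1%, against 36.8% of the 9849 genes at the level). Non-activated replicate 2 held the lowest non-activated value of 27 (75% against 38.8%). Activated replicate 1, 1 of the libraries with high Trac, held the highest activated value of 25 of the 36. The share of all genes at the level was not counted for the highest value. The rule uses the highest activated and the lowest non-activated value. For 24 members (66.7%, against 49.5% of genes at the level) the lowest library had the same replicate number in both groups. The median coefficient of variation of the members was 22.4% in activated and 12.8% in non-activated cells. Over all genes at the level these medians were 9.59% in activated and 7.27% in non-activated cells. The quartiles of the members' activated means were 2.76 and 10.7 CPM. Genes at the level with an activated mean in that range had a median of 14.7% in activated cells (1479 genes). The 22.4% is over all 36 members, also those outside the range. Fgf1, Tg, Fndc5, Npr1 and Dpysl5 had the widest relative gap between activated replicates 1 and 2, and Auh, Ifitm1, Galc and Ankrd55 the narrowest activated spread, at 5.76% or less.

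**Figure D4:**
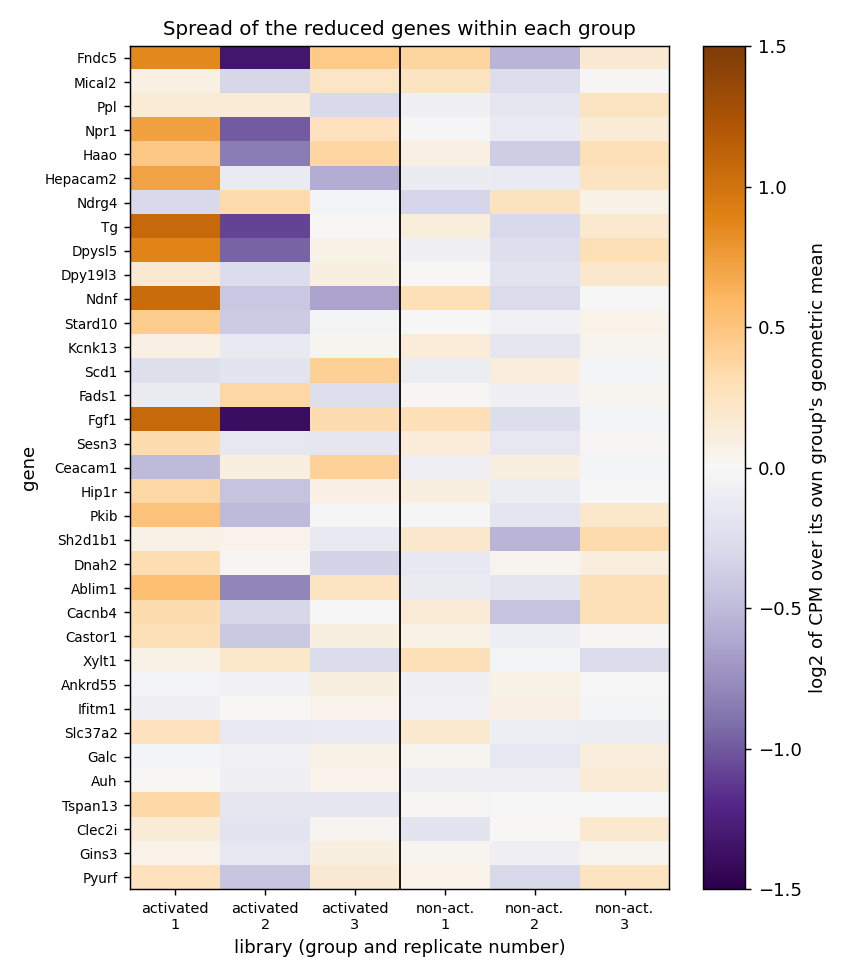
Log2 of each library's CPM over the geometric mean of its own group, for 35 of the 36 genes (rows, most reduced at the top), with activated libraries left of the line and non-activated ones right of it; orange is above and purple below the group's mean. Replicate 2 is the lowest activated library for 22 of these genes and the lowest non-activated one for 26.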

How the data were processed

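Messenger RNA of 6 libraries was analysed, 3 activated and 3 non-activated, grouped by their titles. Per the labels' protocols, 200 ng of total RNA went into NEBNext Ultra libraries read as single 60-base reads. The deposited tables have the layout of RSEM: per the file headers, the authors deposited expected counts for each gene, in which reads that match several genes are split in fractions, along with TPM, FPKM and gene lengths. FPKM, as deposited by the authors, was not used. The submitters' processing notes name the mouse build GRCm38; the sources used here name no aligner for RNA. Ensembl IDs gave symbols for 41597 genes, and positions and promoter windows came from RefSeq on GRCm38.p6.

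CPM was the expected count over the library total. For the test, expected counts were rounded and fitted by edgeR 4.0.16 under R 4.3.3 (genes kept by filterByExpr, TMM, quasi-likelihood, group as the only term, Benjamini-Hochberg over 13946 genes, threshold 0.05); the SE is the log2 fold change over the root of F. The test was also run on simulated counts, in which every gene had the same spread beyond counting error and libraries were independent. That run cannot check the test where libraries of the same number deviate together. Alternatives were DESeq2 1.42.0 size factors and test, no filter, limma 3.58.1 on log2(TPM + 1), each library left out, both replicate 1 libraries left out (chosen after seeing the data) and the replicate number as a block. Libraries that share a number deviated together from their group means (correlations 0.398, 0.313 and 0.187), which pairs them from the data and not from the labels. Depth was 21338012 to 27404937 counts; replicates are not stated to be separate animals, and p-values then reflect the spread among these samples, which may be technical.

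The members and lists were chosen with earlier results of these data known. Named in full were the 12 members highest in non-activated cells, the 12 with the lowest ratio and the 3 nearest the ratio limit (1 of the 36 genes is not reported here by itself), with relatives of the same symbol letters in families of 2 to 30 tested genes and, per list, up to 4 genes of smallest adjusted p.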

Additional observations from a re-analysis of the deposited data

How the results depend on the processing

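The number of genes that met the rule was 30 with TMM-scaled CPM and 26 on the deposited TPM with the same limits, of which 30 and 19 were among the 36; it was 86 with a ratio limit of 0.5 and 14 with 0.3, and 40 to 79 with each library left out in turn (79 without activated replicate 1, 65 without non-activated replicate 2), since fewer libraries make the rule easier to meet. It was 89 with both replicate 1 libraries left out. Genes lower in activated cells numbered 1061 to 1673 with each library left out in turn, and neighbouring genes that were higher 4 to 7, and 5 on the deposited TPM. With the replicate block 2397 genes were lower and 2787 higher; the block changed the calls of no gene named here but Stard6, Ndrg1, Hip1 and Dpysl2. Of 64 genes outside the set followed through each alternative, 48 passed, 35 of them under each of the 12 alternatives, and none changed direction among called values. Low counts limit Fndc5 most in activated cells, down to 5 counts in a library, and other members as well. Among these, Haao went down to 10 counts, Ndnf to 11, Tg and Ppl to 12 and Fgf1 to 18 in an activated library. Counting error adds to the spread of such genes, and PCR copies are not told apart.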

Other observations

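Of the 27 members with a promoter window, the 2 that hold the letters TGACG are Dpy19l3 and Slc37a2, and the 3 with the forkhead letters GTAAACA are Auh, Ifitm1 and Stard10. Expected counts were fractional in all 6 libraries for 12 members, among them Scd1, Ifitm1 and Pkib, and whole in all of them for 18, the tolerance being 0.005 counts.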
